A study of Mus musculus with 8 samples.

Results

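Cluster 6 is a group of nuclei from the dorsal telencephalon of mouse embryos, marked by very high Tafa1 RNA. Its members are the nuclei to which the authors' deposited nucleus tables give cluster number 6. There were 5479 of them among the 67319 nuclei of 8 libraries, 3524 from wildtype and 1955 from knockout libraries. The study set 4 wildtype libraries against 4 libraries from embryos homozygous for a knockout of Pantr2 (Pantr2-/-), a long noncoding RNA gene. All were C57BL/6J embryos of stage E15.5. Nuclei from flash-frozen tissue were profiled by droplet single-nucleus RNA sequencing (10x 3' chemistry), in which a unique molecular identifier (UMI) marks each captured RNA molecule. No agent was given to either group, and the labels do not say whether each library came from 1 embryo or from several. The p-values below therefore measure the spread between these libraries, which may be technical in part.

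At this age most nuclei of the mouse dorsal telencephalon belong to young glutamatergic neurons of the cortical layers or to the progenitors that make them. TAFA1 and TAFA2 are small secreted, chemokine-like proteins made mainly in the nervous system. TAFA proteins have been described as ligands of cell surface proteins, neurexins among them. NELL1 is a secreted glycoprotein, and its relative NELL2 is a ligand of ROBO receptors. LINGO2 is a leucine-rich repeat protein of the neuronal surface, and Hs6st3 encodes an enzyme that adds 6-O-sulfate to heparan sulfate, a sugar chain that binds many secreted ligands. Nuclear RNA is rich in unspliced transcripts, so long genes of synapse and adhesion proteins contribute heavily to such libraries.

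Each library had 7280 to 10921 nuclei with 20446698 to 34083796 UMIs in all. The nuclei of cluster 6 gave 926361 UMIs in knockout replicate 4, the lowest, and 3418122 in wildtype replicate 3, the highest. Any pair of the 8 libraries shared between 8 and 30 cell barcodes. All 8 carry 1 library date, and the genotype in the deposited tables matched the label for every nucleus. Pantr2 was not analysed here, so the labels have no check by the targeted gene. UMIs of Xist, which females transcribe from the inactive X, were counted in 5 of the 8 libraries and UMIs of Y-linked genes in all 8. Levels are given as CPM, the UMIs of a gene per 1000000 UMIs of the cluster in a library, summed over nuclei.

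The label of the cluster comes with 5 markers, Tafa1, Tafa2, Nell1, Lingo2 and Hs6st3, whose levels are described here. Each of these genes was higher in cluster 6 than in any of the other 6 clusters in every wildtype library. The nuclei had been clustered on their expression, so these levels describe the cluster and were not tested. Tafa1 lay at 5692, 5797, 5992 and 5134 CPM in wildtype replicates 1 to 4, and the next highest cluster, cluster 7, averaged 160. Tafa2 averaged 4329 ± 431 CPM (SD, n = 4) against 589 in cluster 1, and Lingo2 2999 ± 141 against 585 in cluster 3. Hs6st3 averaged 1398 ± 111 CPM against 336 in cluster 1. Nell1, the lowest of the markers in level, averaged 338 ± 39.0 CPM against 77.9 in cluster 7. Tafa1 thus stood furthest from the other clusters, at 35.4 times the next highest level, while the other 4 markers stood at 4.16 to 7.35 times. In GRCm38 the 5 genes lie at chr6:96113154-96657198 (Tafa1, plus strand), chr10:123263996-123741204 (Tafa2, plus), chr7:49974864-50866608 (Nell1, plus), chr4:35706647-36951747 (Lingo2, minus) and chr14:119138341-119869815 (Hs6st3, plus). Tafa5 and Tafa4, the remaining members of the family in the gene table, were highest in cluster 6 as well.

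**Figure D1:**
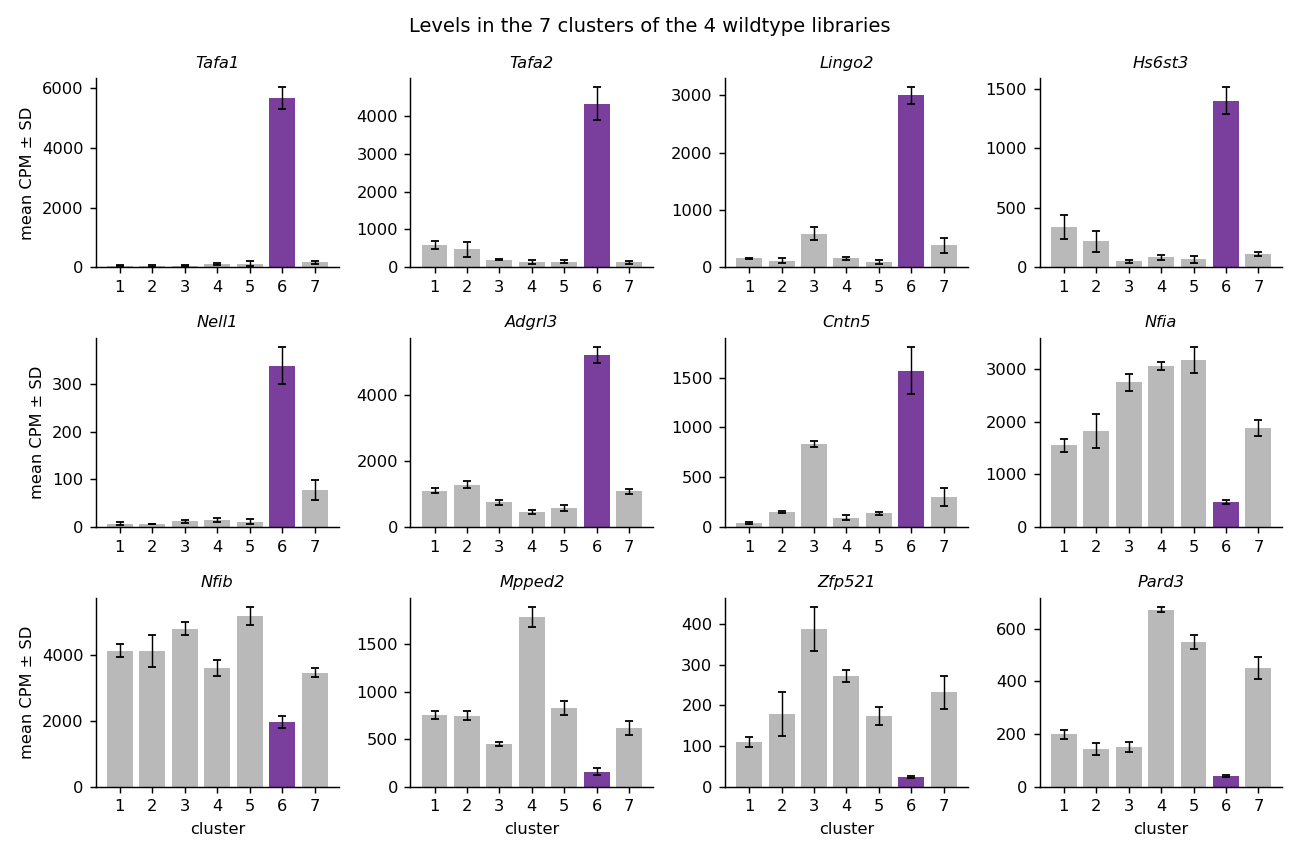
Mean level in CPM (bars, with the SD over 4 wildtype libraries) in each of the 7 clusters, with cluster 6 in purple and a linear axis from 0 in every panel. Tafa1, Tafa2, Lingo2, Hs6st3, Nell1, Adgrl3 and Cntn5 peak in cluster 6, whereas Nfia, Nfib, Mpped2, Zfp521 and Pard3 are at their lowest there.

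Most nuclei of the cluster held its leading markers. With every nucleus thinned to 1400 UMIs, Tafa1 was detected in 79.1% ± 1.64 (SD, n = 4) of wildtype cluster 6 nuclei and in 3.59% of those in cluster 4, which serves as the level of a cluster with little of it. Without thinning the shares were 81.7% and 5.41%, at median depths of 2547 to 3126 UMIs per nucleus in cluster 6 and 2652 to 3113 in cluster 4. No nucleus was left out by the thinning. Tafa2 was detected in 82.1% of thinned wildtype nuclei of cluster 6 and Nell1 in 23.6%, so a nucleus of the cluster without Nell1 UMIs was common at this depth.

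Beyond the markers, the leading genes of the cluster in wildtype were of several kinds. Ranked by the ratio to the next highest cluster, Tafa1 was followed by Cntn4, an adhesion protein of the contactin family, at 176 ± 58.8 CPM and 8.02 times the next cluster. Fstl4, a follistatin-like protein, came next at 199 ± 66.1 CPM and 7.95 times. Adgrl3, the latrophilin adhesion receptor, was among the most abundant at 5217 ± 240 CPM against 1286 in cluster 2. Others of the 20 leading genes were Cntn6, Cntnap5a, Gabrg3 (a GABA-A receptor subunit), Kcnmb2 (a potassium channel subunit), Sorcs3, the secreted ligand gene Angpt1 and the noncoding gene Snhg11, at 94.4 to 459 CPM. Of 12 contactins and contactin-associated proteins, 6 were highest in cluster 6, Cntn5 being the most abundant at 1569 CPM. Of 21 glutamate receptor genes 10 were highest there, as were 7 of 25 potassium channel genes and 5 of 16 calcium and sodium channel genes. Of all 14166 genes in the table, 1605 (11.3%) had their highest wildtype mean in cluster 6. The ephrins and Eph receptors (1 of 13) lay near that share. So did the neurexins, neuroligins, teneurins and latrophilins (1 of 13) and the heparan sulfate enzymes (2 of 19). In all, 260 genes at 50 CPM or more were highest in cluster 6 in each wildtype library.

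The genes lowest in cluster 6 included the nuclear factor I (NFI) transcription factors, which act in neuronal and glial differentiation of the cortex. Nfia averaged 480 ± 39.8 CPM in wildtype cluster 6, whereas the lowest of the other clusters averaged 1555. Nfix averaged 186 ± 23.0 CPM against 426 in the lowest other cluster. Summed over Nfia, Nfib, Nfic and Nfix, the family lay between 2365 and 2847 CPM in the wildtype libraries and between 5931 and 9096 in the means of the other clusters. Zfp521, a zinc finger protein, at 24.4 against 110 CPM, Pard3, a cell polarity scaffold, at 39.7 against 144, and Mpped2 at 158 against 452 were also at their lowest in this cluster. In thinned wildtype nuclei Nfia was detected in 36.3% of cluster 6. The other clusters lay between 74.4% in cluster 1 and 96.6% in cluster 4.

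Single markers of deep-layer neurons were highest in cluster 6. None of 7 corticothalamic layer 6 markers was, and the 7 summed to 1145 CPM in wildtype against 10732 in cluster 3. Bcl11b (CTIP2), a regulator of subcerebral projection neurons, averaged 626 CPM. It was detected in 52.6% of thinned wildtype nuclei, against 66.7% in cluster 3. Of 9 markers of subcerebral layer 5 neurons Etv1 and Ntng1 were highest in cluster 6. The 9 summed to 2494 CPM in wildtype, against 7482 in cluster 2. Of 5 markers of near-projecting layer 5 neurons Tshz2, Lypd1 and Rprm were highest in cluster 6. These 5 summed to 195 CPM in wildtype, against 163 in cluster 3, the next highest.

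Of 14 interneuron markers, Gad2 and Gad1, the enzymes that make GABA, lay at 15.8 and 4.40 CPM. Adarb2, Nxph1 and Sst were highest in this cluster, at 112, 59.9 and 16.7 CPM, and Erbb4 lay at 77.6 CPM. The summed level of the 14 was 325 to 395 CPM in wildtype, and its mean in the other clusters 188 to 565 CPM. Gad2 was detected in 2.23% of thinned wildtype nuclei of cluster 6. The other clusters lay between 1.89% in cluster 2 and 4.11% in cluster 4. Pax6, the apical progenitor factor, lay at 5.32 CPM, and the summed apical progenitor markers at 768 to 975 CPM against 700 to 2887 in the other clusters. Summed markers of oligodendrocyte precursors reached at most 7.89 CPM, of microglia 6.55 and of endothelial cells 17.6 CPM in a wildtype library. The deposited cell cycle angle lay near 0, the non-cycling side, in 71.3 to 79.5% of the cluster's nuclei and in 7.76 to 18.7% of those in cluster 4. The label of neurons high in Tafa1 is kept as a description. Its 5 markers come from the same expression that made the clusters, so they are no independent support. They do not by themselves establish a cell type, and no layer identity is assigned here.

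Nuclei of the cluster differed in how much Tafa1 they held. Tafa1 UMIs are counted here, and wherever nuclei are grouped by Tafa1 below, after thinning each nucleus to 1400 UMIs. So counted, at least 3 were found in 3805 of 5479 nuclei (69.4%) and none in 1066 (19.5%). Outside the cluster, 603 of 61840 nuclei (0.975%) had 3 or more. Just inside and just outside that limit, 235 nuclei of the cluster held 3 Tafa1 UMIs and 303 held 2. The limit was chosen after the data had been seen, and the levels by Tafa1 content are given as a description. Levels use all UMIs of the nuclei, and wildtype nuclei with no Tafa1 UMI after thinning still averaged 114 CPM of Tafa1. In them Tafa2 averaged 2545 CPM, Lingo2 1751 and Adgrl3 3655, each above the highest mean of the other 6 clusters. In nuclei with at least 3 they averaged 4918, 3471 and 5747 CPM.

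The nuclei without Tafa1 UMIs after thinning held more of several other genes than the Tafa1-high nuclei of the same libraries. Unc5c, a netrin receptor, averaged 535 ± 122 CPM in them against 119 ± 34.3. Nfia averaged 977 ± 118 CPM against 337 ± 15.0, with no overlap between the wildtype ranges of the 2 kinds of nuclei. Cntn4 averaged 357 ± 207 CPM against 106 ± 29.3, with ranges that overlapped. Sim1, a transcription factor gene singled out after its values were seen, had 64, 36, 76 and 0 UMIs in cluster 6 of wildtype replicates 1 to 4, and 1, 1, 0 and 0 in the knockout replicates. Of those in wildtype, 124 came from nuclei without a Tafa1 UMI after thinning. Wildtype replicate 4 resembled the knockout libraries in this gene, and Sim1 did not pass the filter on low counts, so it was not tested.

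The cluster made up a smaller share of the nuclei in the knockout libraries. In wildtype replicates 1 to 4 it held 10.4%, 9.42%, 12.7% and 9.37% of all nuclei. In knockout replicates 1 to 4 it held 8.11%, 5.70%, 5.28% and 4.31%. Every knockout library lay below every wildtype library. The nearest values were 8.11% (exact binomial 95% interval 7.50 to 8.76%, counting error only) in knockout replicate 1 and 9.37% (8.78 to 9.99%) in wildtype replicate 4. The means were 10.5% ± 1.54 and 5.85% ± 1.61 (SD, n = 4), a difference of -4.62 percentage points. An exact two-sided permutation test gave p = 0.0286, the smallest that 4 against 4 libraries can give, and 0.2 after Benjamini-Hochberg adjustment over the 7 clusters. Paired by replicate number, the differences were -2.33, -3.72, -7.37 and -5.06 points, all of 1 sign, for which the exact sign-flip test gives its smallest p of 0.125.

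**Figure D2:**
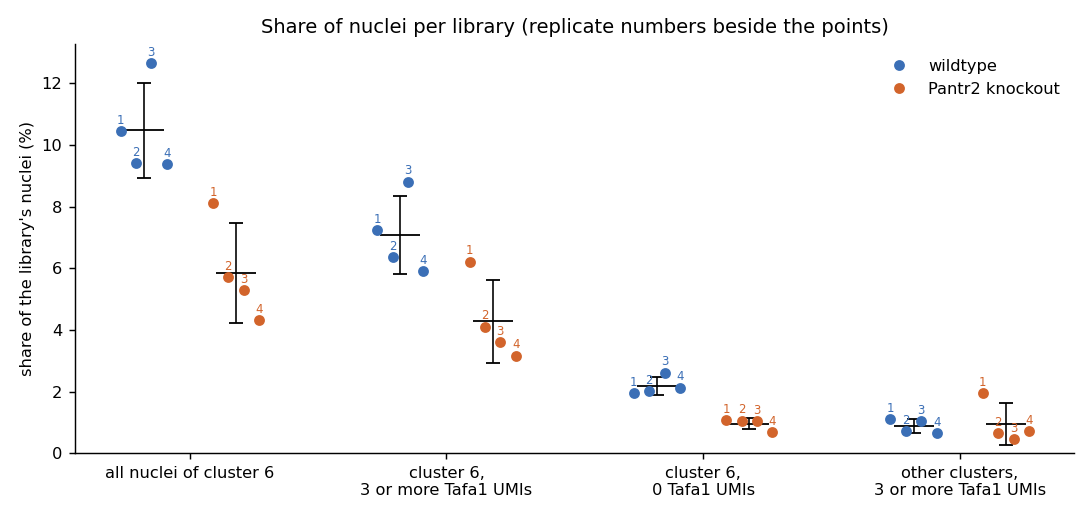
Share of all nuclei of a library, in percent, with 1 point per library, 4 wildtype and 4 knockout libraries, and the mean with its SD. From left to right are all nuclei of cluster 6, then those with at least 3 and with 0 Tafa1 UMIs. Last come nuclei of other clusters with at least 3. Tafa1 UMIs are counted after thinning. For all nuclei of cluster 6 the knockout points lie between 4.31% and 8.11%, below the wildtype points at 9.37% to 12.7%. The groups also lie apart for nuclei with 0 Tafa1 UMIs and overlap in the other sets.

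A share depends on the other clusters, and cluster 4 was the one whose mean share differed most in the other direction, 14.1% in wildtype and 18.4% in knockout (exact permutation p = 0.286). With cluster 4 left out of the total, a denominator chosen after the data had been seen, the difference in cluster 6 was -4.90 points (exact permutation p = 0.0571). With clusters 4 and 5 both left out it was -5.49 points (exact permutation p = 0.0857). In both cases knockout replicate 1, at 10.9% and 12.9%, came within the wildtype range. Without any 1 of the wildtype libraries the p rises to 0.0571, and the difference ranges from -5.37 to -3.89 points over the 8 libraries left out in turn.

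The share was lower for nuclei with and without Tafa1 UMIs after thinning, in classes chosen after the data had been seen. Nuclei of the cluster with 0 Tafa1 UMIs made up 1.96%, 2.03%, 2.62% and 2.13% of the wildtype libraries. In the knockout libraries they made up 1.09%, 1.06%, 1.04% and 0.687%, with no overlap (exact permutation p = 0.0286, and 0.114 adjusted over 4 classes). Nuclei of the cluster with at least 3 Tafa1 UMIs averaged 7.08% and 4.28% (exact permutation p = 0.0571), knockout replicate 1 at 6.22% lying within the wildtype range. Outside the cluster, nuclei with at least 3 Tafa1 UMIs averaged 0.889% and 0.950%. The knockout mean rests on replicate 1 at 1.96%, the other knockout libraries lying at 0.476 to 0.714%. Median UMIs per nucleus of the cluster were 2941 ± 147 in wildtype and 2879 ± 273 in knockout (SD, n = 4, exact permutation p = 0.743).

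Within the cluster, the expression of the knockout and wildtype libraries was compared over 10522 genes with edgeR's quasi-likelihood test on the UMIs summed per library. At a Benjamini-Hochberg adjusted p under 0.05, 83 genes were called (0.789% of those tested), of which 37 (0.352%) were higher and 46 (0.437%) lower in knockout. An unadjusted p under 0.05 was reached by 1043 genes (9.91%). In 82 of the 83 the libraries of the groups did not overlap, and over all genes tested 2.44% were higher and 3.41% lower without overlap. Blocking on the replicate number, by which the libraries deviate together, gave 253 calls (2.4% of those tested), 76 higher and 177 lower, and all 83 genes were among them. The count without 1 library ranged from 51 without knockout replicate 3 and 52 without knockout replicate 2 to 157 without knockout replicate 1. In a sum over nuclei, a change of RNA per nucleus and a change in which nuclei fall in the cluster cannot be told apart.

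Of the 20 leading genes of the cluster in wildtype none was called by edgeR without the replicate block, beside 0.789% of all genes, and 6 had an unadjusted p under 0.05. With the block 6 were called, beside 2.4% of all genes. They were Fstl4, Sorcs3, Snhg11, Nell1, Cntn6 and Gabrg3, all lower in knockout (adjusted p 0.000697 to 0.0119). The wildtype libraries chose these 20 genes and also enter the comparison, so the count and direction are no independent evidence. Of the 20 genes, 18 were highest in cluster 6 in all 4 knockout libraries too, the exceptions being Cntn4 and Cntn6. In levels scaled for library composition over the cluster 6 sums, Tafa1 lay at 5629, 5709, 6074 and 5071 CPM in wildtype and at 7637, 6906, 6667 and 5469 in knockout. The groups overlapped through knockout replicate 4, and edgeR estimated a log2 fold change of 0.25 ± 0.10 (SE, adjusted p = 0.412). The log2 fold changes of Tafa2, Lingo2 and Hs6st3 were -0.06, -0.06 and 0.18, with adjusted p of 0.938, 0.936 and 0.863. Knockout replicate 4 stood above the other 3 knockout libraries in each of these 3 genes, for example at 2655 CPM of Hs6st3 against 1212 to 1241.

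Nell1 was the marker with the lowest knockout levels relative to wildtype. It lay at 362, 285, 378 and 319 CPM in wildtype and at 280, 190, 273 and 226 in knockout. The groups did not overlap, wildtype replicate 2 and knockout replicate 1 being the nearest. Its estimate was -0.47 ± 0.13 (SE) on the log2 scale, with an edgeR adjusted p of 0.155, and of 0.00264 with the replicate block (0.00264 to 0.391 over 14 alternatives). Of the 260 genes highest in the cluster in wildtype, 166 were so in all 4 knockout libraries. Of the 260, 0 were called higher and 8 lower (3.08%, beside 0.437% of all genes tested), and 4 and 25 with the replicate block. Their median log2 fold change was -0.07 beside 0.0040 over all genes tested. The wildtype libraries chose these genes and also enter the comparison, so their count is no independent evidence of a direction.

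Those 8 were Fign, Ryr2, Map3k5, Tshz2, Tfap2d, Dgkh, Ncoa2 and Ccdc171. Tfap2d, a transcription factor of the AP-2 family, lay at 154, 164, 130 and 166 CPM in wildtype and at 71.1, 83.4, 82.3 and 53.6 in knockout. It fell by 1.05 ± 0.13 (SE) on the log2 scale, with an adjusted p of 0.00103 in edgeR. Fign, which encodes the microtubule-severing protein fidgetin, lay at 148 to 173 CPM in wildtype and 85.4 to 105 in knockout, a log2 fold change of -0.71 (adjusted p = 0.00145). Ryr2, the ryanodine receptor of intracellular calcium stores, lay at 111, 67.7, 68.2 and 64.2 CPM in wildtype and at 46.2, 23.5, 40.4 and 29.5 in knockout. It fell by 1.15 log2 units (adjusted p = 0.0335), and that p rose to between 0.0587 and 0.153 when knockout replicate 2, 3 or 4 was left out and to 0.0532 with a term for whether a library held Xist UMIs. Dgkh, a diacylglycerol kinase, fell by 0.70 (adjusted p = 0.00254). The calls of Map3k5, Ncoa2 and Ccdc171 were lost under 4, 9 and 13 of 14 alternative settings. In fits within single clusters, Tfap2d was also called lower in clusters 3 and 5, Fign in cluster 4 and Dgkh in clusters 1, 2 and 3. Ncoa2 was also called lower in clusters 1, 2, 4 and 5, and Map3k5 and Ccdc171 were called in no other cluster.

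**Figure D3:**
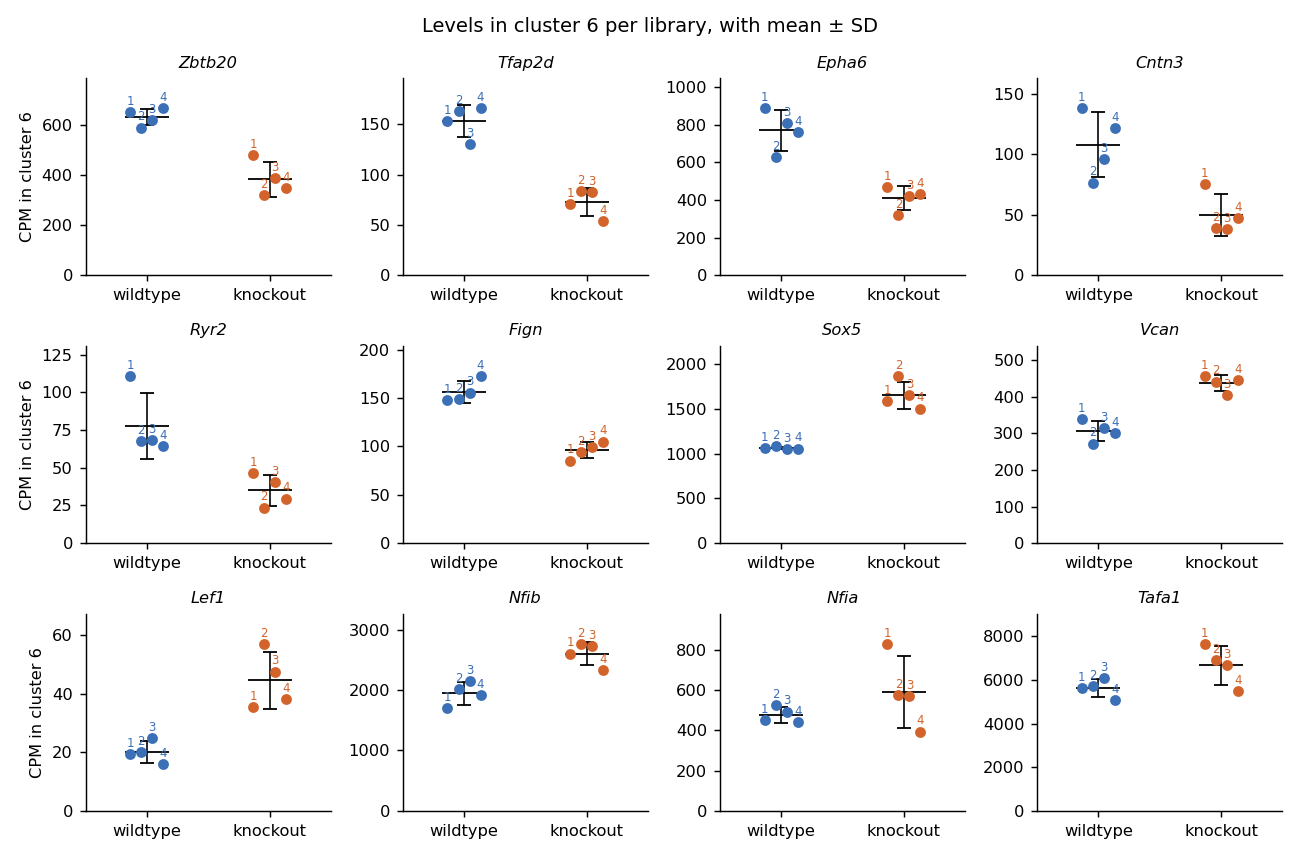
Level in cluster 6 in CPM (linear axes from 0) of 12 genes in each wildtype and knockout library, numbered by replicate, with the mean and SD of each group. Zbtb20, Tfap2d, Epha6, Cntn3, Ryr2 and Fign are lower and Sox5, Vcan, Lef1 and Nfib higher in knockout, and the groups overlap for Nfia and Tafa1.

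Several transcription factor genes changed. Zbtb20, a zinc finger factor best known from the hippocampus, lay at 650, 590, 621 and 666 CPM in wildtype and at 479, 320, 387 and 349 in knockout. No knockout library reached the wildtype range, and the gene fell by 0.72 ± 0.11 (SE) on the log2 scale (edgeR adjusted p = 0.00749). Tshz2, a teashirt family factor, lay at 92.2, 86.6, 69.7 and 102 CPM in wildtype and 53.9, 41.7, 42.6 and 32.8 in knockout, and fell by 1.00 ± 0.15 log2 units (adjusted p = 0.00501). Sox5, a regulator of deep-layer neuron differentiation, rose. It lay at 1064, 1086, 1050 and 1056 CPM in wildtype and at 1587, 1865, 1652 and 1503 in knockout, a log2 fold change of 0.64 ± 0.08 (adjusted p = 0.00140). Lef1, a transcription factor of Wnt signalling, lay at 16.0 to 24.9 CPM in wildtype and 35.6 to 57.1 in knockout, a log2 fold change of 1.17 ± 0.18 (adjusted p = 0.00648). These 4 calls held under all 14 alternative settings. Fitted within each cluster, Sox5 was also called higher in clusters 1, 2, 5 and 7, and Lef1 in clusters 1, 2 and 4. Tshz2 was also called lower in clusters 1 and 2, and Zbtb20 was called in no other cluster.

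Ikzf2, a zinc finger factor of the Ikaros family named here after its values were seen, fell by 0.95 on the log2 scale (edgeR adjusted p = 0.00193). The counts by marker list were small. Of 9 tested markers of subcerebral layer 5 neurons only Sox5 was called (list median log2 fold change 0.05), and of 2 tested near-projecting markers Tshz2. Of 5 tested markers of hippocampal and medial pallium neurons, Zbtb20 fell and Lef1 rose. The summed level of that whole list of 8 was 641 to 714 CPM in wildtype and 389 to 531 in knockout, with Zbtb20 the largest part, and 2 of the 8 lay under 1 CPM in wildtype. Whether nuclei of another type take part in this was not tested.

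The NFI genes did not pass the test, though Nfib lay near it. Nfib was at 1704, 2019, 2153 and 1918 CPM in wildtype and at 2604, 2761, 2725 and 2328 in knockout. The groups did not overlap, and edgeR estimated a log2 fold change of 0.42 ± 0.09 (SE, adjusted p = 0.0579). The adjusted p was 0.00539 with the replicate block and 0.00436 to 0.203 over 14 alternatives, of which 6 gave a call. Nfia lay at 450, 526, 493 and 441 CPM in wildtype and at 828, 573, 568 and 394 in knockout, with knockout replicate 4 below every wildtype library and knockout replicate 1 far above. Its estimate was 0.31 ± 0.17 (adjusted p = 0.576). Nfix and Nfic stood at 0.22 and 0.21, and the median over the 4 genes was 0.27 beside 0.0040 over all genes tested.

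Among cell surface genes, Epha6 and Cntn3 were called. Epha6, a receptor for ephrins that guide axons, lay at 886, 627, 808 and 759 CPM in wildtype and at 469, 320, 421 and 431 in knockout. It fell by 0.91 ± 0.13 (SE) on the log2 scale (edgeR adjusted p = 0.00291) and was the only call among 13 ephrin and Eph genes without the replicate block. With the block Efna5 (adjusted p = 0.00959) and Epha7 (0.00136) were called lower too, and Efna5 was called in 5 of 14 alternatives (0.000376 to 0.347). Cntn3, a contactin, lay at 138, 76.6, 96.1 and 122 CPM in wildtype and at 75.3, 39.3, 38.3 and 47.0 in knockout. The groups met without overlapping, wildtype replicate 2 and knockout replicate 1 lying at 76.6 and 75.3 CPM. The log2 fold change was -1.10 ± 0.22 (adjusted p = 0.0386), and 7 of 14 alternatives lost the call. It was the only call among 11 tested contactin family genes without the replicate block, and their median log2 fold change was -0.24. With the block Cntn6 (adjusted p = 0.00484), Cntnap5b (0.0270) and Cntnap5c (0.0267) were called lower too.

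The other guidance receptors and ligands gave no call in edgeR without the block. Of 7 tested NELL and ROBO pathway genes none was called, and of 6 netrin receptor genes none. Robo1, a receptor for SLIT and NELL2 ligands, averaged 1938 ± 167 CPM in wildtype and 1417 ± 234 in knockout (log2 fold change -0.45, edgeR adjusted p = 0.111). Robo2 averaged 816 ± 172 and 454 ± 194 CPM (-0.85, adjusted p = 0.213). Unc5c averaged 211 ± 42.6 and 103 ± 45.7 CPM (-1.09, adjusted p = 0.0583), and 7 of 14 alternatives called it (adjusted p 0.0016 to 0.217). With the replicate block Nell1, Robo1 and Robo2 of the first list and Unc5c, Unc5d and Dscam of the second were called, Dscam higher and the rest lower. Slit2 and Slit3, secreted ligands of ROBO receptors, stood at -0.01 and 0.21 log2 units, and the netrin receptor gene Dcc at 0.22, none called. Of 13 semaphorin and receptor genes none was called without the block, and 4 had an unadjusted p under 0.05, beside 9.91% of all genes. With the block Sema5a was called lower (log2 fold change -0.60, adjusted p = 0.00779). The knockout difference of Sema5a lay below that in the other clusters (-0.93, edgeR adjusted p = 0.0413).

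Genes named after their values were seen include the cadherins Cdh4, which fell by 0.86 (edgeR adjusted p = 0.00501), and Cdh11, which rose by 0.49 (0.0386, lost in 6 of 14 alternatives). Vcan, the extracellular matrix proteoglycan versican, lay at 338, 272, 315 and 300 CPM in wildtype and at 456, 441, 404 and 446 in knockout. It rose by 0.51 ± 0.08 (SE) on the log2 scale (adjusted p = 0.00998). Gpc4, a heparan sulfate proteoglycan and 1 of the 8 genes lowest in the cluster, rose by 0.85 (0.0328, lost in 6 of 14 alternatives). Chst8, a sulfotransferase, and Galnt14, which starts mucin-type glycosylation, rose by 0.68 and 0.60, in each of the 14 alternatives. Chst8 was also called higher in clusters 1, 2 and 5 and Galnt14 in clusters 1 and 5, at 1.42 and 1.80 log2 units in cluster 1. Also called in the same direction were Cdh4 in cluster 4, Cdh11 in cluster 1 and Gpc4 in clusters 1, 2, 3 and 5. Vcan was called in no other cluster.

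The neurotransmitter receptor and channel lists gave no call in edgeR without the replicate block. None of 21 glutamate receptor genes was called (7 had an unadjusted p under 0.05, median log2 fold change -0.15), none of 12 GABA receptor genes (4, -0.02), none of 24 potassium channel genes (5, -0.07) and none of 16 calcium and sodium channel genes (1, -0.04). The median over all genes tested was 0.0040, and 9.91% of all genes had an unadjusted p under 0.05. With the replicate block 4, 1, 3 and 0 genes of these lists were called. Grm5, a metabotropic glutamate receptor, averaged 857 ± 120 CPM in wildtype and 609 ± 170 in knockout with overlapping groups. Of the TAFA family (4 tested), the heparan sulfate enzymes (17) and the neurexins, neuroligins, teneurins and latrophilins (13) none was called in edgeR without the block. With it Nrxn3 (adjusted p = 0.00278) and Nlgn1 (0.0450) were called lower.

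Interneuron, corticothalamic and apical progenitor markers gave no call without the replicate block. Of 9 tested interneuron markers 4 had an unadjusted p under 0.05 (Dlx5, Npy, Erbb4 and Adarb2), and the summed level of the list of 14 was 325 to 395 CPM in wildtype and 160 to 336 in knockout. With the block Dlx5 (adjusted p = 0.0357) and Adarb2 (0.00468) were called lower, as was Rora (0.00484) of the thalamic list. Of the 6 tested corticothalamic and 10 apical progenitor markers none was called in edgeR. Bcl11b averaged 622 ± 38.4 CPM in wildtype and 712 ± 90.9 in knockout, with an adjusted p of 0.533. Pantr1, the noncoding gene beside the targeted locus, lay at 156, 162, 121 and 219 CPM in wildtype and 154, 91.6, 75.1 and 148 in knockout. The groups overlapped, and the log2 fold change was -0.50 with an adjusted p of 0.457, which became 0.0361 with the replicate block and 0.0168 with the term for Xist UMIs (0.0168 to 0.757 over 14 alternatives).

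The genes with the largest differences were a group apart, many of them low in level or with near-identical copies. Those higher in knockout by size were Gm28438, Tpm3-rs7, Dnajc22, Qrfpr, Gm49450, Gm6209, 4930578M01Rik, Adamtsl4, Lef1, Siah3, Trim59 and Scp2. Those lower were mt-Nd3, Gm17167, Dok2, Bmp6, Gm16070, Deptor, Lncpint, Gm16835, Scrn1, Hjurp, S100a10 and Celf3. Of these 24, 18 kept their direction and call under all 14 alternatives, and the others, Gm6209, Adamtsl4, Scp2, Bmp6, Gm16835 and S100a10, lost the call under at least 1 and reversed under none. Many were not particular to cluster 6. Called higher in all 7 clusters were Gm28438, Tpm3-rs7, Dnajc22, Qrfpr, Gm49450, Gm6209, 4930578M01Rik, Adamtsl4 and Trim59. Called lower in all 7 were mt-Nd3, Gm17167, Scrn1, Hjurp, S100a10 and Celf3. Dnajc22, for example, stood at 5.03 to 7.32 log2 units over the clusters, and mt-Nd3 at -7.53 to -5.70.

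**Figure D4:**
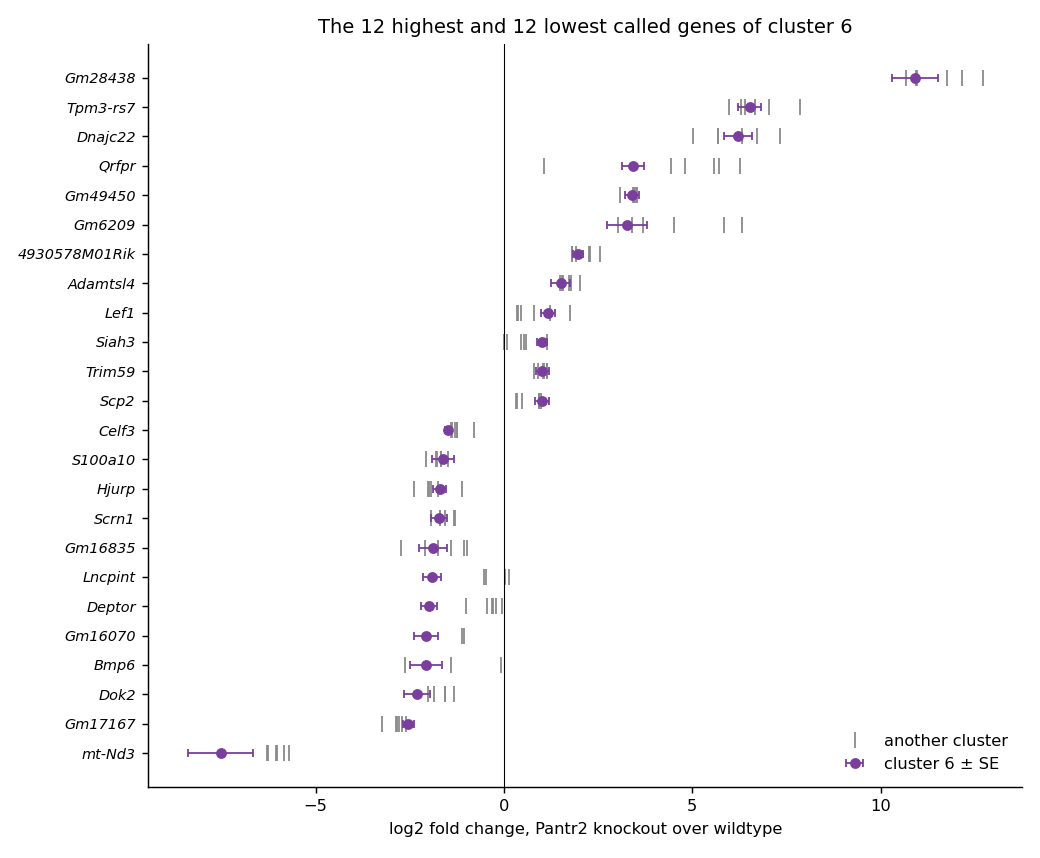
Log2 fold change (points, with the SE) of the 24 genes with the largest called differences in cluster 6, knockout against wildtype, 12 higher and 12 lower. Grey ticks give the log2 fold change of the same genes in each other cluster where they were tested. Gm28438, at 10.92, and mt-Nd3, at -7.53, lie furthest out, and both fitted values depend on the small count added to groups near 0 UMIs.

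mt-Nd3 and Gm28438 moved in opposite directions. mt-Nd3, a subunit gene of respiratory complex I in the mitochondrial genome, lay at 51.7, 174, 178 and 364 CPM in wildtype and at 0, 2.40, 0.722 and 0 in knockout, 2190 against 6 UMIs. Gm28438, an annotated pseudogene on chromosome 1 (GRCm38 chr1:24612775-24613119, minus strand), lay at 0, 0, 0 and 0.357 CPM in wildtype and at 161, 280, 471 and 212 in knockout, 1 against 1701 UMIs. Scaled to the UMI totals of the cluster, the ratio was 3148 for Gm28438 (exact 95% interval 564 to 124431, counting error only). Over the 345 bases they share, the annotated transcripts differ at 1 position, T3C, counted from 1 at the 5' end of the mt-Nd3 transcript. The first 43 bases of both are shown because the base in capitals is the only one that differs within the 345. The mt-Nd3 transcript runs on to 348 bases.
mt-Nd3: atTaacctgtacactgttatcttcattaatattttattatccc
Gm28438: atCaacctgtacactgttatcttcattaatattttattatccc

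The sum of both genes was 51.7, 174, 178 and 364 CPM in wildtype and 161, 282, 472 and 212 in knockout, groups that overlap (exact permutation p = 0.4). The other 12 genes of the mitochondrial genome stood at -0.28 to 0.47 on the log2 scale, none called without the replicate block (lowest edgeR adjusted p 0.355). With the block mt-Nd1 (adjusted p = 0.0189), mt-Nd6 (0.0147) and mt-Cytb (0.0316) were called higher. How the reads of these near-identical transcripts were shared out was not tested.

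Tpm3-rs7, a copy of the tropomyosin gene Tpm3 and 99.1% identical to it over 2108 bases, lay at 0 to 0.593 CPM in wildtype and 32.6 to 44.9 in knockout, 4 against 226 UMIs. The sum of Tpm3 and Tpm3-rs7 averaged 64.4 ± 5.32 and 112 ± 13.7 CPM, with no overlap (exact permutation p = 0.0286). Gm49450, a gene model that overlaps the tubulin genes Tuba1a and Tuba1b on the same strand, lay at 21.8 to 38.2 CPM in wildtype and 216 to 339 in knockout. Gm49450, 4930578M01Rik, Dnajc22 and Spats2 lie within 1 stretch of chromosome 15 (GRCm38 chr15:98932137-99213215), and all 4 were higher in knockout. Dnajc22 lay at 0 to 1.07 CPM in wildtype and 25.2 to 44.5 in knockout, and Spats2 at 148 to 164 and 219 to 277 CPM. Gm17167, with near-identical stretches in 22 other annotated genes, lay at 87.2 to 95.2 and 11.9 to 20.8 CPM, and its reads cannot be assigned with certainty.

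Celf3, an RNA-binding splicing regulator of neurons, was the most abundant of the 12 lowest. It lay at 258, 270, 279 and 244 CPM in wildtype and at 96.0, 88.2, 96.8 and 94.1 in knockout. Every knockout library was far below every wildtype library, and the log2 fold change was -1.49 ± 0.08 (SE, edgeR adjusted p = 4.4e-07). Deptor, an inhibitor of the mTOR kinase, lay at 24.5, 23.8, 18.1 and 21.0 CPM in wildtype and at 5.34, 5.75, 5.05 and 5.47 in knockout (-1.99 ± 0.21, adjusted p = 0.000251). Hjurp, a histone chaperone of centromeres, lay at 43.9 to 52.0 and 10.7 to 18.2 CPM. Bmp6, a secreted ligand of the bone morphogenetic protein family, lay at 8.90 to 25.3 and 2.19 to 4.33 CPM (-2.07, adjusted p = 0.0385, lost in 5 of 14 alternatives).

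Of the others with low levels, Qrfpr, a neuropeptide receptor, lay at 0.890 to 1.43 CPM in wildtype and 10.1 to 16.4 in knockout, and Trim59 at 9.66 to 14.6 and 22.5 to 27.9. Siah3 lay at 23.0 to 30.3 and 48.0 to 64.5 CPM. S100a10, a small calcium-binding family protein, lay at 15.6 to 22.2 CPM in wildtype and 4.15 to 14.2 in knockout, the highest being knockout replicate 4. Lncpint, a long noncoding RNA, lay at 12.5 to 14.8 and 2.19 to 4.74 CPM, with no overlap in any of these genes.

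Dok2 overlaps Xpo7 on the opposite strand by 593 bases. Dok2 lay at 6.42 to 7.81 CPM in wildtype and 0.593 to 2.17 in knockout, and Xpo7, a nuclear transport receptor, at 356 to 395 and 145 to 166 CPM. Scrn1 and Celf3 overlap Wipf3 and Riiad1, and Lncpint, Gm16070, Gm16835 and Bmp6 each overlap another gene of the table on the opposite strand. Strand use in the counting is not given in the sources used here, so reads of such pairs may not be separated.

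The called genes were spread unevenly over the chromosomes. On chromosome 3, 17 of 515 tested genes were called (3.30%), and on chromosome 14, 14 of 355 (3.94%), beside 0.789% of all genes. Chromosome 1, which carries the targeted locus, had 10 of 626 (1.60%). On chromosomes 5 and 19 no gene was called, of 717 and 341. Some of the called genes were called in all 7 clusters, such as Celf3 on chromosome 3 and Xpo7 on chromosome 14.

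Whether the knockout difference in cluster 6 departed from that in the other 6 clusters of the same libraries was tested directly, by the difference of the paired log2 fold changes. Levels in this test are scaled over both sums of each library, so means of cluster 6 differ slightly from those above. Of 13672 genes 54 (0.395%) were called, 29 (0.212%) with a higher and 25 (0.183%) with a lower difference in cluster 6. The count depended strongly on single libraries. Without knockout replicate 3 it was 2, without knockout replicate 2 13, without wildtype replicate 2, 4 or 3 18, 21 and 24, and without knockout replicate 4 it was 124. The other libraries left out gave 43 and 60.

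Deptor departed clearly, its knockout difference in cluster 6 lying 1.63 ± 0.22 (SE) log2 units below that in the others (difference -1.63, edgeR adjusted p = 0.00789). In the other clusters together Deptor averaged 7.19 CPM in wildtype and 5.56 in knockout, and in cluster 6 it averaged 22.4 and 5.54. Fitted within single clusters, Deptor was also called in cluster 1, at -1.01 log2 units (edgeR adjusted p = 0.0195). Zbtb20 departed by -0.66 ± 0.09 (adjusted p = 0.00789). Fitted within each cluster, Zbtb20 stood at -0.72 in cluster 6 and at -0.34 to -0.10 elsewhere. Cntn3 departed by -1.18 (0.0136) and Ryr2 by -1.28 (0.0299). Within single clusters Cntn3 stood at 1.00 log2 units in cluster 3 (adjusted p = 0.000186), opposite in sign to cluster 6, and at -0.48 in cluster 2 (0.0262). Ryr2 stood at 0.81 in cluster 2 (0.0345), at 0.79 in cluster 1 without a call (0.0558), and at -0.69 in cluster 3 (0.0270). Vcan departed by 0.51 (0.0182), its log2 fold change being -0.05 to 0.20 in the other clusters. Except for Deptor, which the rule on size named, these genes are given because they were called within cluster 6 as well.

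Tafa2 and Hs6st3 departed upward, and were lower in knockout in the sum of the other clusters. Tafa2 averaged 307 CPM in wildtype and 154 in knockout in the other clusters but 4398 and 4230 in cluster 6, a departure of 0.95 ± 0.14 (SE, edgeR adjusted p = 0.00858). Taken cluster by cluster, it stood at -2.23 log2 units in cluster 2, at -0.88 in cluster 1 and at -0.06 in cluster 6. Hs6st3 averaged 152 and 95.9 CPM in the others and departed by 0.79 (0.0136). Within single clusters Hs6st3 was called in cluster 2 only, at -1.90 log2 units (0.00158). It stood at -0.68 in cluster 1, at 0.37 in cluster 3 and at -0.04 in cluster 4. In cluster 6, knockout replicate 4 lay above the other knockout libraries in both genes, at 5530 CPM of Tafa2 against 3550 to 3752. For Hs6st3 that library lay at 2655 against 1212 to 1241 CPM. Over 14 alternatives the cluster 6 estimate ranged from -0.23 to 0.0088 for Tafa2 and from -0.18 to 0.29 for Hs6st3. Values of these departures with single libraries left out are not given here. Tafa1, Nell1 and Lingo2 had estimated departures of 0.45, 0.24 and 0.45 that were not called, with adjusted p of 0.783, 0.755 and 0.101.

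By size of the departure, Ebf2 (-2.44), P3h2 (-1.93), Lncpint (-1.76), Deptor and Nhs (-1.32) were the lowest and Npr3 (2.14), Gucy1a1 (1.46), Ntsr1 (1.14), Gm49678 (1.12) and Gm37928 (0.99) the highest. Ebf2, a helix-loop-helix transcription factor gene, averaged 9.90 CPM in wildtype and 4.65 in knockout in cluster 6 and 0.847 and 2.16 in the others. Npr3, a natriuretic peptide receptor, averaged 5.75 and 6.54 CPM in cluster 6 and 15.9 and 4.60 in the others. Ntsr1, a neurotensin receptor known from corticothalamic neurons, averaged 30.0 and 42.9 CPM in cluster 6 and 27.0 and 17.8 in the others. Of 11 alternatives, 9 or 10 kept the call of a departure for Deptor, Gucy1a1, Ntsr1 and Gm37928, and 7 for Nhs. The others held it in 3 to 5, Ebf2 ranging from -3.49 to -1.15 (adjusted p 0.00463 to 0.793) and P3h2 from -2.44 to -0.42 (0.0190 to 0.933). None of these genes except Deptor and Lncpint was called within cluster 6 itself.

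**Figure D5:**
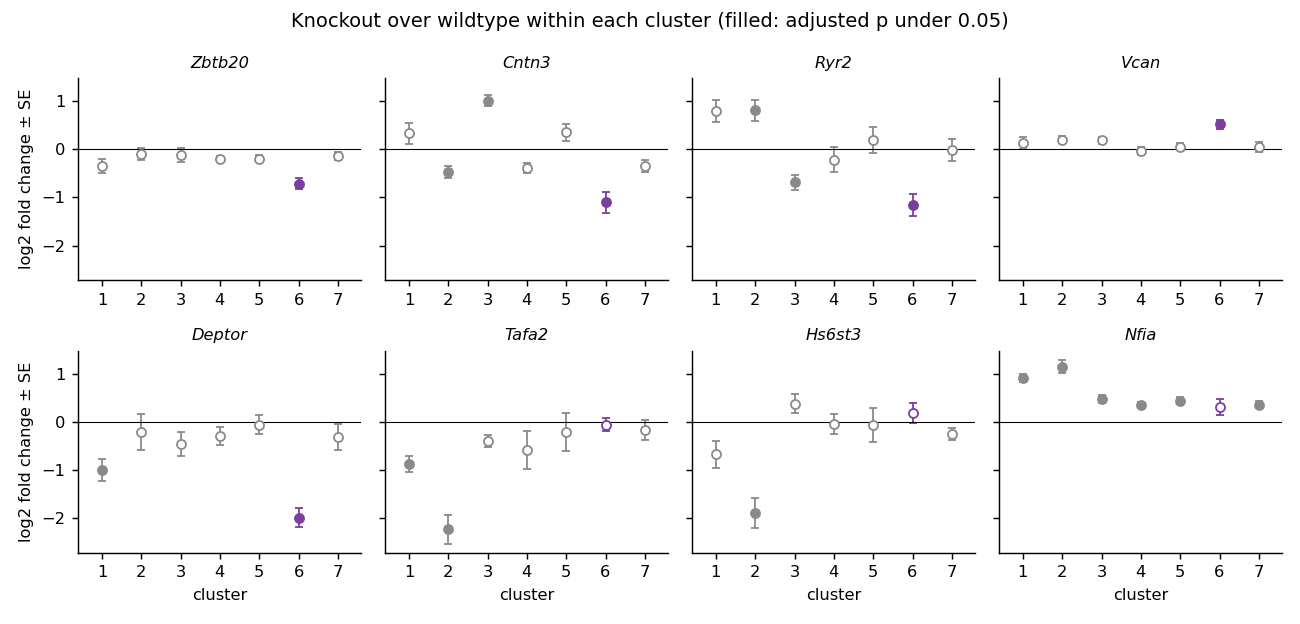
Log2 fold change, knockout against wildtype, of named genes in each of the 7 clusters (points, with the SE, filled where the adjusted p is under 0.05), cluster 6 in purple. Zbtb20 and Deptor lie lowest in cluster 6, at -0.72 and -1.99, whereas Tafa2 lies at -0.06 in cluster 6 and at -2.23 in cluster 2.

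For other genes called in cluster 6 the departure was not called, which does not show that the differences are alike. Celf3 changed by -1.49 in cluster 6 and by -0.79 to -1.41 in the others, and its departure of -0.15 was not called (edgeR adjusted p = 0.707). The departures of Xpo7, Gm49450 and Spats2 were -0.03, 0.02 and -0.11, none called, and these 3 genes and Celf3 were each called in all 7 clusters. Epha6 had a negative log2 fold change in all 7 clusters, -0.35 to -2.14, and its departure of 0.45 was not called (0.294). Nfia, not called in cluster 6, stood at 0.35 to 1.14 in the other clusters beside 0.31 in cluster 6, a departure of -0.34 that was not called (0.531). The overlap of these calls between clusters was not evaluated, because the clusters come from the same libraries.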

How the data were processed

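The deposited per-library matrices hold UMI counts per gene and nucleus, and the authors' deposited nucleus tables give each nucleus a cluster number, a genotype, a doublet score and a cell cycle angle in radians. Per the submitters' processing notes, kallisto, bustools and the mm10 build were used. Clusters 1 to 7 were taken as deposited, and no doublet caller was run because the deposited hybrid doublet scores of all nuclei lie at or below 0.5 (highest 0.499954). The lowest UMI total of a nucleus in the cluster was 1504. Of the 14166 genes in the table, Pantr2 and Pou3f3 were not analysed here. A further marker gene, with the lists that hold it, is not reported here. Coordinates are those of GENCODE M21 (GRCm38), matched by gene ID.

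UMIs were summed per library and cluster (Python 3.11.15, numpy 2.4.6, pandas 2.3.3) and fitted with edgeR 4.0.16 in R 4.3.3 (TMM factors, filterByExpr, glmQLFit and glmQLFTest, group as the only term). The difference from the other clusters was fitted on both sums of each library with library as a block. DESeq2 1.42.0 was an alternative. Shares and per-library values were compared by exact two-sided permutation over 70 arrangements (scipy 1.17.1), and sequence copies were found with blastn 2.17.0 at 95% identity over at least 100 bases. On simulated counts with 200 of 10522 genes changed by 1 log2 unit, the fit recovered 79% with 5 false calls, and the difference test 64% with 7. The simulated libraries, and both sums of each, were drawn independently. Deviations shared by replicate number or within a library were left out, so these rates may not hold for the real counts.

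The named genes are the 12 with the largest called change in each direction, averaging 10 or more UMIs over the libraries, the called members of the fixed lists, and the 5 largest departures in each direction. The members and gene lists were chosen with earlier results of these data known. Libraries with the same replicate number deviated together from their group means (r = 0.184 to 0.446 over 6643 genes, against -0.250 to 0.126 for the 12 other pairs), so the replicate number was used as a block in an alternative fit. Alternatives tried were DESeq2, RLE factors, no filter on low counts, the replicate block, a term for whether any Xist UMIs were counted in a library (5 of 8; no label used here gives sex), leaving out the 10% highest doublet scores and leaving out each library. Shares rest on 7280 to 10921 nuclei per library, and intervals cover counting error only.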

Additional observations from a re-analysis of the deposited data

Results flagged for a closer look

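In 8 of 70 groups of 4 libraries checked, 1 library lay far from the other 3. Chance alone gives about 1 in 20 where groups are independent, but these groups share the same 8 libraries and some rest on few UMIs. Knockout replicate 4, the library with the fewest nuclei of cluster 6 (314), gave 4 of the 8 groups. Its Tafa2 level was 5530 CPM against 3550 to 3752 in the other knockout libraries, its Hs6st3 level 2655 against 1212 to 1241, and its S100a10 level 14.2 against 4.15 to 5.78. Its share of cluster 6 nuclei with 0 Tafa1 UMIs after thinning was 0.687% against 1.04 to 1.09%.

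Nuclei outside cluster 6 with at least 3 Tafa1 UMIs after thinning made up 1.96% of knockout replicate 1. They made up 0.476 to 0.714% of the other knockout libraries. Of the 144 such nuclei in knockout replicate 1, 53 were in cluster 4, which held 25.5% of that library's nuclei. The 144 nuclei had a median doublet score of 0.205 and a median of 3426 UMIs. Nuclei of cluster 6 with at least 3 Tafa1 UMIs in the same library had 0.107 and 2594. Whether doublets take part in this was not tested. Scrn1 lay at 9.59 CPM in knockout replicate 2 against 20.9 to 23.0. Dok2 lay at 7.81 CPM (21 UMIs) in wildtype replicate 1 against 6.42 to 6.52 (16 to 22 UMIs) in the other wildtype libraries. Gm28438 lay at 0.357 CPM (1 UMI) in wildtype replicate 4 against 0 in the other 3. At such counts, counting error was not told apart from a difference between libraries.

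By edgeR's test of the difference itself, the knockout effect in cluster 6 departed from that in the other clusters by -2.44 log2 units for Ebf2, -1.93 for P3h2, -1.76 for Lncpint, -1.63 for Deptor and -1.32 for Nhs. It departed by 2.14 for Npr3, 1.46 for Gucy1a1, 1.14 for Ntsr1, 1.12 for Gm49678 and 0.99 for Gm37928. Of 11 alternatives, 3 to 5 kept the call for Ebf2, P3h2, Lncpint, Npr3 and Gm49678, whose adjusted p reached 0.168 to 0.933, 7 for Nhs, and 9 or 10 for the other 4 genes.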

How the results depend on the processing

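Of the 48 named genes called in cluster 6, 33 kept their direction and call under all 14 alternatives and none reversed. The count of called genes became 253 with the replicate block (76 higher, 177 lower). DESeq2 called 115, 77 of the 83 among them, with 70 lower. Leaving out 1 library at a time gave 51 to 157 calls, 24 to 51 higher and 26 to 106 lower. The departures from the other clusters numbered 2 to 124 when 1 library was left out, 1 to 70 of them higher and 1 to 54 lower, and 19 were higher without a filter on low counts. Against only the neuronal clusters 1, 2, 3 and 7, Ebf2 departed by -1.15 (edgeR adjusted p = 0.793) and P3h2 by -0.42 (0.933), their adjusted p over all 11 alternatives ranging from 0.00463 to 0.793 and from 0.019 to 0.933.

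The difference in share was -5.49 and -4.90 percentage points without clusters 4 and 5 or 4 alone in the total. It was -2.74 for nuclei of any cluster and -2.80 for nuclei of cluster 6 with at least 3 Tafa1 UMIs after thinning. With the replicate block it was -4.62, where the smallest p is 0.125. None of these passed 0.05. Without the 10% highest doublet scores the difference was -4.49 points, with an exact permutation p of 0.0286, the smallest possible. Leaving out 1 library gave -5.37 to -3.89. The difference in median UMIs per nucleus ranged from -145 to 48.4 when 1 library was left out, and changed sign without knockout replicate 1. The summed marker level in wildtype was 14718 CPM, and 14157 as a mean over nuclei scaled singly. The cause of these shifts was not tested. In the knockout libraries 314 to 623 nuclei limit the depth of each level.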
